A study of Mus musculus with 50 samples.

Results

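The genes described here are the hyaluronan receptor gene Cd44, the hyaluronan synthase genes Has2 and Has3, the hyaluronidase genes Hyal1 and Hyal2, and the ezrin, radixin and moesin genes Ezr, Rdx and Msn. They were taken from the deposited count table by gene symbol, which gave 8 of 45792 rows, and all 8 members were found. Their mRNA was measured by RNA-seq in liver and liver tumours of C3H/He mice, an inbred strain prone to liver tumours, at 48 weeks. Non-tumour liver gave 12 libraries for the control diet and 11 for the ALIOS diet, a fast-food-like American lifestyle diet that leads to fatty liver. Tumours that arose without a carcinogen, called spontaneous below, were 12 from ALIOS fed mice and 1 from a control diet mouse. Tumours from mice that also received DEN (diethylnitrosamine, a liver carcinogen) numbered 8 from ALIOS fed mice and 5 from control diet mice. Non-tumour liver of DEN treated mice was not analysed here, so a DEN tumour was set against the liver of mice without DEN on the same diet, and the effect of DEN on liver cannot be told apart from that of the tumour. The labels do not tie a tumour to the liver of the same mouse, nor do they name a batch.

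A further tumour of the ALIOS group, T1, was left out. Its library held 1059419 counts of Kap and 54300 of Umod, both kidney genes, and 1136 of the hepatocyte gene Alb, and its Ezr count was 9130. The 49 other libraries held 23798251 to 45751398 counts each. Hepatocyte markers were abundant in each of them (summed level of 9 markers at least 85290 CPM, a unit defined below). The sum of 6 kidney markers was at most 21.7 CPM in them, the highest in spontaneous tumour T9. In the ALIOS livers N21, N22 and N23 that sum read 3.41, 5.64 and 2.58 CPM, and at most 0.236 CPM in the other livers. Tumour T24 of the ALIOS and DEN group stood apart in several of the genes below, so the fitted differences of the members and the counts of the lists against liver that include it are also given without it. Levels are given as CPM, counts per 1000000 counts of the library after TMM scaling (trimmed mean of M values). Differences are edgeR quasi-likelihood log2 fold changes with their standard error (SE), and a gene was called when its Benjamini-Hochberg adjusted p over all genes tested was under 0.05.

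Hyaluronan is a long sugar polymer of the extracellular matrix, made at the plasma membrane by the synthases of the Has family from UDP-sugars and cut by the hyaluronidases. CD44 is the main cell surface receptor for it. Leukocytes, among them macrophages, use CD44 to adhere and move, and many tumour cells carry it too. Ezrin, radixin and moesin, together the ERM proteins, tie the tails of CD44 and of other membrane proteins to the actin cortex. In healthy liver, radixin is the main ERM protein of hepatocytes, where it holds transporters at the bile canaliculus, while moesin is typical of leukocytes and endothelium and ezrin of cholangiocytes and other epithelia.

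In GRCm38 coordinates (Gencode M21), Cd44 lies at chr2:102811141-102901665 on the minus strand, Ezr at chr17:6738041-6782784 on the minus strand, Rdx at chr9:52047173-52088735 and Msn at chrX:96096042-96168552, both on the plus strand. Hyal2 (chr9:107567945-107572779) and Hyal1 (chr9:107576927-107581710) are neighbours on the plus strand. Of the 3777 exonic bases of Hyal1, 2079 (55.0%) overlap exons of Naa80 and Hyal3 on the same strand, so reads there could have gone to these genes or to none, and the level of Hyal1 is uncertain. Has2 (chr15:56665627-56694539, minus strand) and Has3 (chr8:106870242-106884566, plus strand) share 182 and 704 exonic bases with genes on the opposite strand, Has2os and Chtf8. The strand setting of the counting is not given in the sources used here, so reads of those genes cannot be told from those of the synthases. Counts are per gene, and thus do not separate the splice variants of Cd44.

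The ERM genes are close relatives, and their coding sequences are shown by what they share because reads could be misplaced between them. Ezr and Msn were identical at 73.8% of aligned coding bases, Rdx and Msn at 71.9%, and Ezr and Rdx at 1226 of 1752 of them. The longest run of identical bases between any pair of them was the 32 bases from position 901 of both the Ezr and the Msn coding sequence, read from Gencode M21 transcripts, where the sequencing reads had 100 bases.
Ezr and Msn: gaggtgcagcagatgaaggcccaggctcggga

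The 250 bases before the RefSeq start of 4 members whose levels changed below are shown, since Hyal1 and Hyal2 are neighbours that moved in opposite directions and Ezr and Cd44 rose with the diet. The sequences are those of RefSeq for GRCm38.p6, which listed 6 of the 8 members. Capitals mark matches on either strand to any of 4 short motifs. The first was TGANTCA, the letters of the AP-1 site. The second motif searched was GGGCGG, known as the GC box. The third was the TATA box, here TATAAA. The last was the CCAAT box. The first window is chr17:6782781-6783030 on the minus strand, the second chr2:102901666-102901915 on the minus strand, the third chr9:107576700-107576949 and the fourth chr9:107568913-107569162, both on the plus strand. The Hyal2 window lies inside the Gencode gene given above, whose start is upstream of the RefSeq start.
Ezr: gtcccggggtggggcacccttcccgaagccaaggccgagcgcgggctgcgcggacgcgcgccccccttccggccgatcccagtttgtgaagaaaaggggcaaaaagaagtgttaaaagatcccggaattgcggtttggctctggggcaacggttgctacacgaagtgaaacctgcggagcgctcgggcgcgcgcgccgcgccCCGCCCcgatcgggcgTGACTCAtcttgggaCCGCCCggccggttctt
Cd44: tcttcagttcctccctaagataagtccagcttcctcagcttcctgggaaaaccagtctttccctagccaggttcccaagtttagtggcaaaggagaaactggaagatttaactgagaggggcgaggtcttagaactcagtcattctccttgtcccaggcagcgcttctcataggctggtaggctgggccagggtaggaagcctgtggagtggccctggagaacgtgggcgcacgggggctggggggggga
Hyal1: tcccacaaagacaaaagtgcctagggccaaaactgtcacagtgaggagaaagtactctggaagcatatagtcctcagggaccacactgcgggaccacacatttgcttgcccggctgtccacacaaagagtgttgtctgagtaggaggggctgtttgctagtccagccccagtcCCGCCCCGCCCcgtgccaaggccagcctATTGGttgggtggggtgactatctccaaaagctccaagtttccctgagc
Hyal2: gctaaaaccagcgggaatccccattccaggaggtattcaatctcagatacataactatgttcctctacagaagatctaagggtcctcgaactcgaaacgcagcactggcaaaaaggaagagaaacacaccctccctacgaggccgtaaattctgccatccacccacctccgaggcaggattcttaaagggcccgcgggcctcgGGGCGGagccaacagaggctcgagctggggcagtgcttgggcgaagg

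The Ezr window held 1 TGANTCA match, beginning 32 bases before the start, and 2 GGGCGG matches. Of 32851 promoter windows of this length, 6.75% held TGANTCA, 32.7% GGGCGG, 33.8% CCAAT and 12.4% TATAAA. The Hyal1 window held 2 GGGCGG matches, which overlap by a base, and 1 CCAAT match, and the Hyal2 window held 1 GGGCGG match. The Cd44 window held none of the 4. A match of letters is a description and says nothing about binding.

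Per kilobase of exon, radixin was by far the most abundant of the 8 mRNAs in control diet liver, with a median of 41.5 CPM per kilobase. Hyal2 (10.6) and Hyal1 (8.16) came next, then Msn (3.16), Ezr (0.976) and Cd44 (0.316). Has3 stood at 0.0101, and Has2 was not detected. The same scale in DEN tumours on the control diet read 39.96 for Rdx, 21.8 for Hyal2, 5.51 for Ezr, 4.89 for Msn, 1.99 for Hyal1 and 0.872 for Cd44, so that Ezr stood above Msn and Hyal1 below both. The plot of levels by group shows every library.

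**Figure D1:**
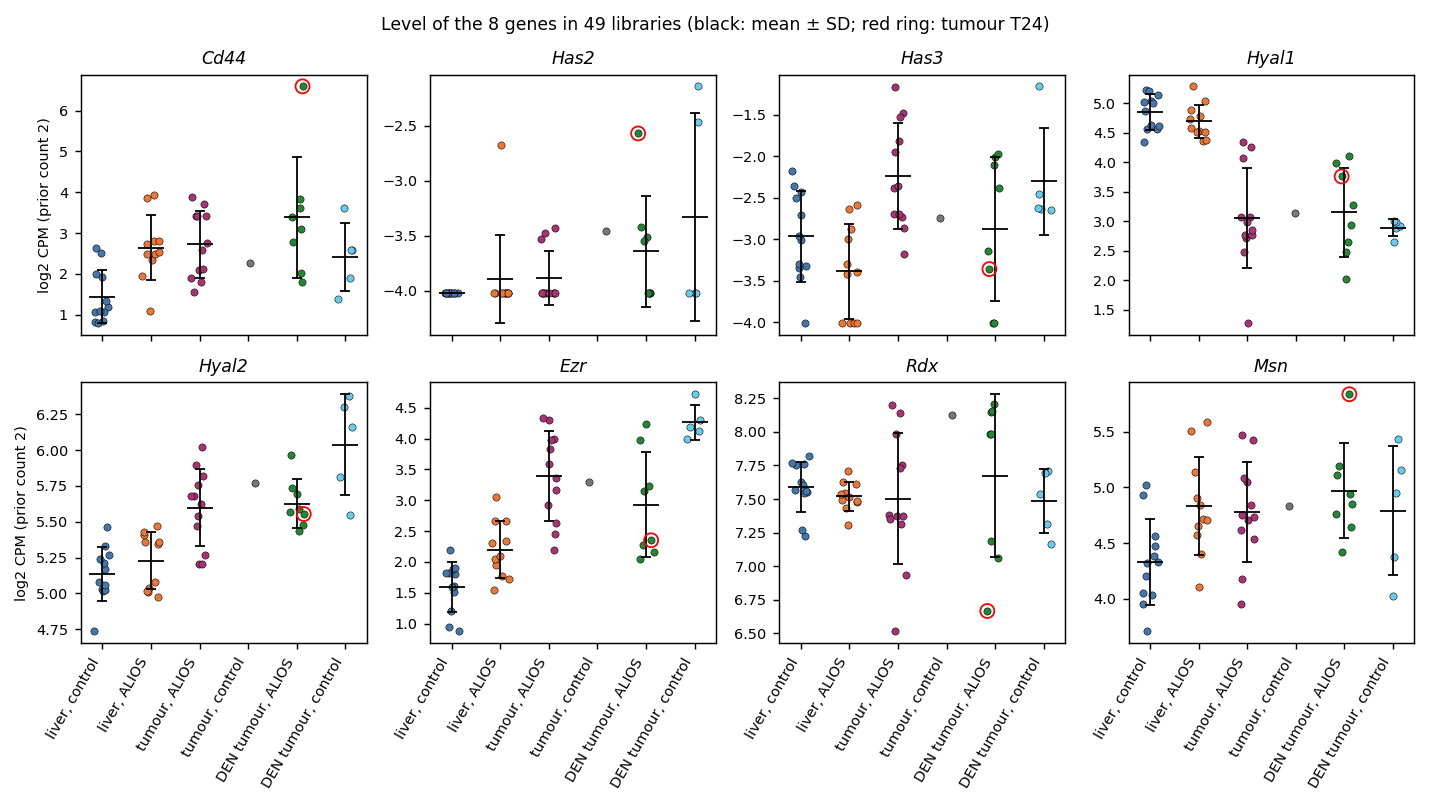
Level of each of the 8 genes (log2 CPM, vertical axis, prior count 2) in each of 49 libraries, by diet, tissue and DEN (horizontal axis), with mean ± SD in black for groups of more than 1 library and tumour T24 ringed in red. Hyal1 was lower in every tumour than in every liver of the same diet, Ezr rose from liver to tumour, and T24 stood above all other libraries for Cd44.

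In non-tumour liver, 2 of the 6 members that passed the filter on low counts rose with the ALIOS diet, Cd44 and Ezr, and none fell. Over all 13723 genes tested, 6.73% rose and 4.51% fell. Cd44 read 1.69 CPM at its lowest, 2.14 at the median and 6.19 at its highest in the 12 control livers, and 2.09, 5.75 and 15.3 CPM in the 11 ALIOS livers. The groups overlapped, but 5 ALIOS livers lay above the highest control liver and 10 of 11 above the control median. The fold change was 2.38 (log2 1.25 ± 0.30, SE; edgeR adjusted p = 0.0116). The call was kept without any 1 of the 23 livers in turn (log2 1.07 to 1.40) and lost when all 6 groups shared 1 fit (log2 1.26, adjusted p = 0.0720).

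Markers of macrophages and Kupffer cells moved with Cd44. Of 16 such markers 12 rose with the diet and none fell, and their summed level ranged from 267.7 to 665.3 CPM in control livers and from 376.7 to 1412 CPM in ALIOS livers. Of 4 T cell markers tested, 3 rose. So did 3 of 9 stellate and fibroblast, 2 of 5 proliferation and 1 of 5 cholangiocyte markers, and none of these fell. No endothelial, neutrophil, B cell or hepatocyte marker was called. None of the macrophage or T cell markers was at 0 throughout a group. The 2 livers with the highest Cd44, N19 and N17, also had the highest sums of macrophage markers. They led other lists among the ALIOS livers too. N17 had the highest stellate and fibroblast (591.1 CPM), T cell (19.1 CPM) and cholangiocyte (30.9 CPM) sums. N19 had the highest neutrophil (23.6 CPM) and proliferation (30.1 CPM) sums. In bulk samples, fewer cells of a type and less RNA per cell cannot be told apart, and the part of these cells in the Cd44 result was not tested.

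Cd44 did not differ detectably between spontaneous tumours and liver on the ALIOS diet. It read 2.88, 6.35 and 14.8 CPM (lowest, median and highest) in 12 tumours, and its range lay within that of the livers. The log2 fold change was 0.10 ± 0.32 (SE, adjusted p = 0.818). Over the same samples 11 of 16 macrophage markers fell and 1 rose, with a summed level of 109.1 to 747.2 CPM in the tumours.

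In DEN tumours Cd44 was called higher than in liver on both diets, but on each diet the call rested on 1 tumour. On the ALIOS diet the 8 tumours read 3.43 CPM at the lowest, 9.43 at the median and 14.1 at the second highest, and T24 read 96.4 CPM, from 5428 counts. With T24 the log2 fold change against ALIOS liver was 1.49 ± 0.54 (SE, adjusted p = 0.0290), and without it 0.31 (adjusted p = 0.466). DESeq2 replaced the T24 count with 425 as an outlier and gave log2 0.25 (adjusted p = 0.544). In T24 the summed stellate cell and fibroblast markers read 1257 CPM, where the second highest tumour of its group read 329.3. Its cholangiocyte markers read 71.1 CPM, where the second highest read 28.4. The macrophage and T cell sums of T24, 986.8 and 25.3 CPM, were also the highest of its group, where the second highest read 860.6 and 18.5. The part of these cells in the T24 value was not tested. Of 16 macrophage markers 1 rose and 2 fell in ALIOS DEN tumours against liver, and 1 rose and 7 fell without T24. Over all genes 27.7% rose and 19.8% fell, and 29.8% and 22.6% without T24.

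On the control diet, Cd44 in the 5 DEN tumours read 2.54, 3.68, 5.91, 5.96 and 12.2 CPM, the last in T17. All 5 lay above the median of the control livers and 1 above their highest. The log2 fold change was 1.08 ± 0.35 (SE, adjusted p = 0.0139). Without T17 it was 0.66 (adjusted p = 0.125), and in the fit of all 6 groups 1.03 (adjusted p = 0.0899). T17 also had the highest summed stellate and fibroblast markers of its group, 693.3 CPM against 338.2 in the next tumour, and the highest macrophage sum, 438.0 CPM. The part of these cells in the T17 value was not tested. Of 16 macrophage markers 3 rose and 5 fell in control diet DEN tumours, where 27.3% of all genes rose and 24.4% fell.

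**Figure D2:**
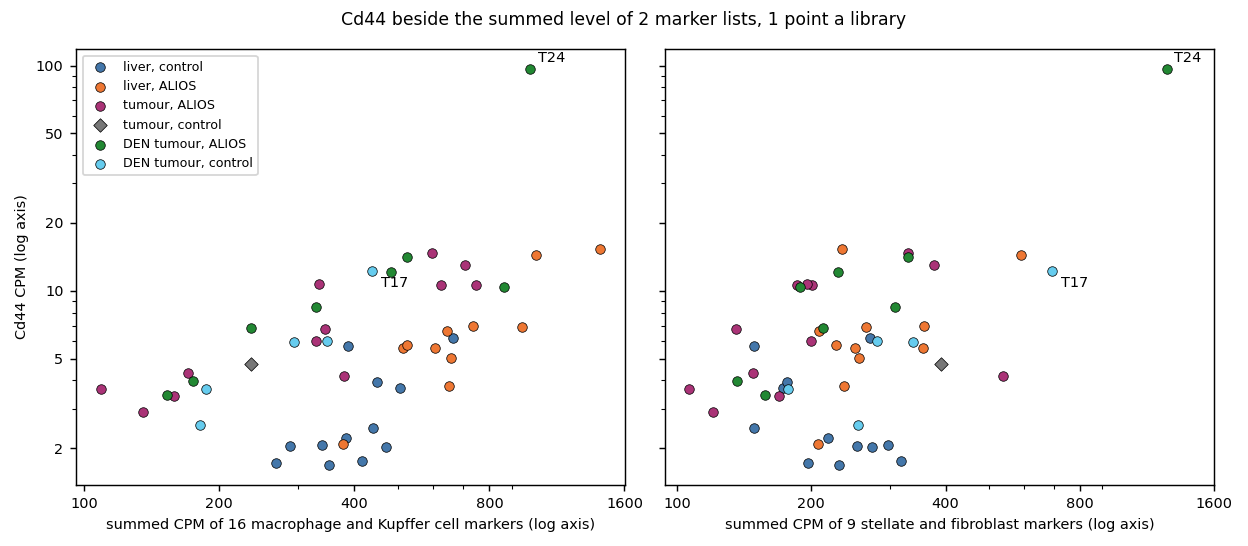
Cd44 level (CPM, vertical log axis) against the summed CPM of 16 macrophage and Kupffer cell markers (left) and of 9 stellate and fibroblast markers (right, horizontal log axes), 1 point for each of 49 libraries, coloured by group. T24, at 96.4 CPM of Cd44, and T17, at 12.2 CPM, are named; T24 has the highest stellate and fibroblast sum of all libraries, 1257 CPM.

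Among the groups with more than 1 library, the mean log2 level of Cd44 was lowest in control liver, followed by control diet DEN tumours, ALIOS liver, spontaneous ALIOS tumours and ALIOS DEN tumours. Each pair of neighbours in this order overlapped in range. Between the tumour groups no difference of Cd44 passed the test. DEN and spontaneous tumours on the ALIOS diet differed by log2 1.36 ± 0.53 (SE, adjusted p = 0.474), or 0.16 without T24. ALIOS and control diet DEN tumours differed by log2 1.70 ± 0.81 (SE, adjusted p = 0.601), or 0.48 without T24.

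The synthase mRNAs were scarce. Has2, which codes for a synthase of long hyaluronan, had no count in any of the 12 control livers, which allows up to 0.00816 CPM over that group (3 counts of the group's total, counting error only). It had 3 counts in 1 of 11 ALIOS livers, 3 counts over 3 of 12 spontaneous tumours, and 9 counts over 4 of 8 ALIOS DEN tumours, 6 of them in T24. In the 5 control diet DEN tumours 2 held its 9 counts. Has2 failed the filter in each comparison, and no difference was detectable at this depth by permutation of the libraries. The smallest p was that of control diet DEN tumours against liver, unadjusted p = 0.147 by exact permutation.

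Has3, which codes for a synthase of shorter hyaluronan, also failed the filter in each comparison. It held 0 to 5 counts in control livers, 0 to 3 in ALIOS livers, 2 to 13 in spontaneous tumours, 0 to 7 in ALIOS DEN tumours and 3 to 13 in control diet DEN tumours. Spontaneous tumours held 70 counts over 12 libraries and ALIOS livers 13 over 11, and 7 of those livers and all 12 tumours had a count. The mean log2 CPM was 1.15 higher in the tumours on a scale with a prior count of 2 (unadjusted permutation p = 0.00016, 100000 resamples). This was the only p under 0.05 of 12 such tests over both synthases. Has3 in control diet DEN tumours was 0.66 above liver on that scale (exact permutation p = 0.0559), where T18 held 13 of the 27 counts.

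The hyaluronidase genes changed in opposite directions in each set of tumours. In spontaneous tumours of ALIOS fed mice, 2 of the 6 members tested rose against liver, Hyal2 and Ezr, and 1 fell, Hyal1, where 26.9% of 14183 genes rose and 25.9% fell. In ALIOS DEN tumours 3 of 6 rose, Cd44, Hyal2 and Ezr, and 1 fell, Hyal1, where 27.7% of 14434 genes rose and 19.8% fell. In control diet DEN tumours 4 of 6 rose, Cd44, Hyal2, Ezr and Msn, and 1 fell, Hyal1, where 27.3% of 14731 genes rose and 24.4% fell. The comparisons of both ALIOS tumour groups share the ALIOS livers, and those of the diet and of the control diet tumours share the control livers.

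Hyal1, which codes for a lysosomal hyaluronidase that cuts hyaluronan into small pieces, read 20.2, 30.8 and 37.4 CPM (lowest, median, highest) in control livers and 20.6, 23.9 and 39.1 CPM in ALIOS livers. In spontaneous tumours it read 2.34, 7.53 and 20.3 CPM, and in ALIOS DEN tumours 4.01, 8.65 and 17.2 CPM. The 5 control diet DEN tumours read 6.24, 7.34, 7.50, 7.87 and 7.96 CPM. Every tumour group thus lay wholly below the livers of its diet, although the highest spontaneous tumour, 20.3 CPM, and the lowest ALIOS liver nearly met.

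Hyal1 differed from liver by log2 -1.44 ± 0.25 (SE, adjusted p = 6.2e-05) in spontaneous tumours, by -1.35 ± 0.24 (adjusted p = 0.00014) in ALIOS DEN tumours and by -1.95 ± 0.15 (adjusted p = 5.2e-09) in control diet DEN tumours. The last is 0.258 times the liver level. Without T24 the value in ALIOS DEN tumours was log2 -1.42 (adjusted p = 0.00013). Diet did not change it detectably in liver, with log2 -0.19 ± 0.12 (SE, adjusted p = 0.320). Hyal3, which shares exons with Hyal1, gave log2 -0.29, -0.52 and -0.29 in the same order of tumours and was called in none. Values of Naa80, the other gene with shared exons, are not given here. Of 9 hepatocyte markers 6 fell in spontaneous tumours, 4 in ALIOS DEN tumours and 5 in control diet DEN tumours, while 2 rose in each. The counts in ALIOS DEN tumours were the same without T24. The summed level of the 9 was higher in tumours at the median. It read 115600 CPM in ALIOS livers, 177700 in spontaneous and 171700 in ALIOS DEN tumours, and 129400 in control livers and 180800 in control diet DEN tumours. The part of hepatocyte state in the Hyal1 result was not tested.

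Hyal2, which codes for a GPI-anchored hyaluronidase of the cell surface, read 26.6, 34.9 and 44.1 CPM in control livers and 31.4, 40.6 and 44.2 CPM in ALIOS livers. It read 36.8, 50.2 and 65.1 CPM in spontaneous tumours and 43.3, 47.7 and 62.3 CPM in ALIOS DEN tumours. Those groups overlapped with liver. The 5 control diet DEN tumours, from 46.7 to 83.1 CPM with a median of 71.6, all lay above the highest control liver.

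The rise of Hyal2 was log2 0.39 ± 0.10 (SE, adjusted p = 0.0018) in spontaneous tumours, 0.46 ± 0.09 (adjusted p = 0.00027) in ALIOS DEN tumours and 0.97 ± 0.12 (adjusted p = 1.5e-06) in control diet DEN tumours. Without T24 it was log2 0.47 in ALIOS DEN tumours (adjusted p = 0.00024). In liver the diet gave log2 0.07 ± 0.08 (SE, adjusted p = 0.556). Whether the diet difference itself differed between DEN tumours and liver was tested as an interaction, which gave log2 -0.51 ± 0.15 (SE, adjusted p = 0.0589) for Hyal2. That missed the threshold, but passed it in DESeq2 (adjusted p = 0.0331) and without T24 (adjusted p = 0.0489).

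As a ratio within a library, Hyal1 counts were 0.607 to 1.39 times those of Hyal2 in control livers and 0.507 to 1.02 times in ALIOS livers. In tumours the ratio fell to medians of 0.144 in the spontaneous group, 0.149 in the ALIOS DEN group and 0.103 in the control diet DEN group. Hyal1 exceeded Hyal2 in 3 control livers, 1 ALIOS liver and no tumour. The scatter of Hyal1 against Hyal2 shows the tumours below the line of equal CPM, and the spontaneous tumours T5 and T6 have the ratios nearest to the livers, 0.552 and 0.519. In the authors' own clustering, T6 was the only tumour that fell within the cluster of non-tumour livers.

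**Figure D3:**
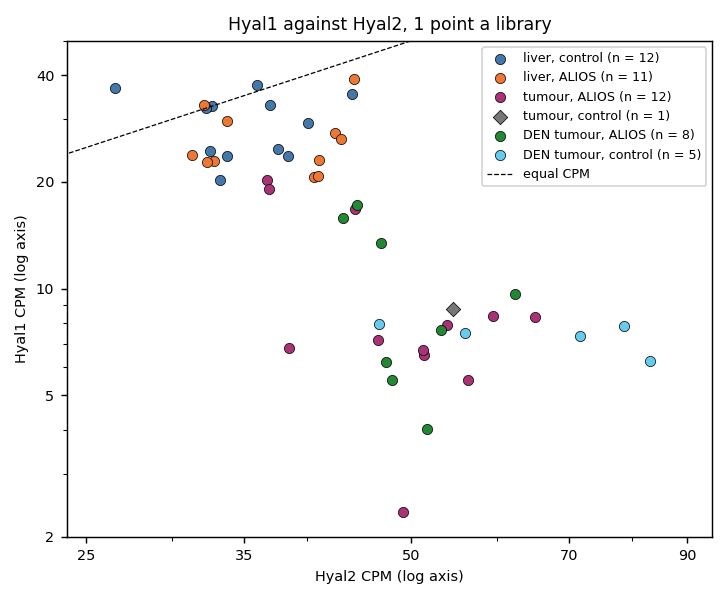
Hyal1 level against Hyal2 level (CPM, both axes log), 1 point a library, coloured by group, with the line of equal CPM dashed. Livers lie near the line, and the tumours lie below it, with Hyal1 to Hyal2 ratios of at most 0.552.

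Ezr, which codes for ezrin, differed more from liver than the other ERM genes in all 3 sets of tumours. It read 1.77, 3.21 and 4.51 CPM in control livers and 2.86, 4.22 and 8.29 CPM in ALIOS livers. In spontaneous tumours it read 4.49, 11.1 and 20.0 CPM, and 8 of the 12 lay above the highest ALIOS liver. The 8 ALIOS DEN tumours read 4.09, 4.43, 4.78, 5.04, 8.83, 9.35, 15.7 and 18.8 CPM, of which 4 lay above the highest ALIOS liver. The 5 control diet DEN tumours read 15.8, 17.3, 18.1, 19.7 and 26.3 CPM, each above every control liver.

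Ezr rose with the diet in liver by log2 0.62 ± 0.18 (SE, adjusted p = 0.0278). The call was lost without N17 (log2 0.50, adjusted p = 0.0659), without N22 (adjusted p = 0.0552) and in the fit of all 6 groups (log2 0.63, adjusted p = 0.146). It rose in spontaneous tumours by log2 1.30 ± 0.25 (SE, adjusted p = 0.00013), in ALIOS DEN tumours by 0.96 ± 0.30 (adjusted p = 0.0118) and in control diet DEN tumours by 2.71 ± 0.17 (adjusted p = 2.2e-10), which is 6.55-fold. Without T24 the ALIOS DEN value was log2 1.05 (adjusted p = 0.0064), and with T1 kept the spontaneous value was log2 2.53.

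Cholangiocyte markers moved with Ezr in part in liver. In no tumour group of more than 1 library did their highest sum and the highest Ezr fall in the same tumour. With the diet in liver the median log2 fold change of these markers was 0.61 over 5 tested, where that of all genes was -0.02. Of them 1 rose, where 6.73% of all genes did. Their summed level was 14.6 to 23.8 CPM in control livers and 14.7 to 30.9 CPM in ALIOS livers, and N17 and N22, without which the diet call of Ezr was lost, had the highest sums of their group (30.9 and 24.1 CPM). Of the same 5 markers, 2 rose in spontaneous tumours (15.02 to 40.3 CPM), 2 in ALIOS DEN tumours (17.8 to 71.1 CPM) and 1 in control diet DEN tumours (16.5 to 26.8 CPM), and none fell. Over all genes 26.9%, 27.7% and 27.3% rose and 25.9%, 19.8% and 24.4% fell, in the same order. In ALIOS DEN tumours the median of the 5 markers was log2 0.37, and -0.46 without T24. The tumours with the highest sums, T10, T24 and T20, read 14.15, 5.04 and 15.8 CPM of Ezr, where the medians of their groups were 11.1, 6.94 and 18.1. None of the cholangiocyte markers was at 0 throughout a group, and their part in the Ezr results was not tested.

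The diet difference of Ezr was not the same in DEN tumours and liver. Diet gave log2 0.62 in liver and log2 -1.12 ± 0.37 (SE) in DEN tumours, the latter not called on its own (adjusted p = 0.392). The interaction was log2 -1.74 ± 0.37 (SE, adjusted p = 0.0112), with 1.23% of 15606 genes called lower and 1.04% higher. Ezr was the only member called in it, and 7 of 8 ALIOS DEN tumours lay below the lowest control diet DEN tumour. The value stayed called without T24 (log2 -1.66, adjusted p = 0.0096) and without each control diet DEN tumour in turn (log2 -1.81 to -1.61, adjusted p at most 0.0323). The ALIOS DEN tumours T23, T24 and T25 had low Ezr (4.09, 5.04 and 4.43 CPM). They also had the lowest summed hepatocyte markers (90080, 86100 and 103700 CPM) and the highest Hyal1 of their group. T16, with 4.78 CPM of Ezr, had the highest hepatocyte sum there, 232300 CPM. No fit left out T23, T24 and T25 together.

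Rdx, which codes for radixin, showed no called difference in any comparison and varied more among the tumours of ALIOS fed mice than among their livers. It read 149.5, 192.5 and 226.3 CPM in control livers and 158.1, 182.4 and 209.0 CPM in ALIOS livers. Spontaneous tumours spread from 91.4 to 293.9 CPM (median 166.4), ALIOS DEN tumours from 101.5 to 296.0 CPM (median 252.9), and control diet DEN tumours from 143.8 to 208.7 CPM (median 185.4). The highest was 3.22 times the lowest in spontaneous tumours and 2.92 times in ALIOS DEN tumours, where livers on the ALIOS diet spread 1.32-fold.

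Its log2 fold change was -0.09 with the diet in liver, 0.06 in spontaneous tumours, 0.31 in ALIOS DEN tumours (adjusted p = 0.141) and -0.06 in control diet DEN tumours. Of the 8 ALIOS DEN tumours, 5 lay above every ALIOS liver and 3 below every one. Those below were T24 (101.5 CPM), T23 (133.4 CPM) and T25 (145.5 CPM). Without T24, the lowest, ALIOS DEN tumours stood log2 0.42 above liver (adjusted p = 0.0157). The same size was called with library totals as the only scaling (adjusted p = 0.0311), under which the median of all genes rose to log2 0.21.

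Msn, which codes for moesin, read 13.01, 20.0 and 32.4 CPM in control livers and 17.2, 26.3 and 47.9 CPM in ALIOS livers, where 10 of 11 exceeded the control median. Its diet difference in liver, log2 0.50 ± 0.17 (SE, adjusted p = 0.0544), narrowly missed the threshold. It passed in DESeq2 (adjusted p = 0.0304) and with library totals as the only scaling (adjusted p = 0.0438). With library totals 87.1% of called genes rose, where 59.9% did with TMM. In 23 edgeR fits that each left out 1 liver, the adjusted p of Msn ran from 0.0236 to 0.120. Spontaneous tumours read 15.4, 26.8 and 44.4 CPM (log2 -0.04 ± 0.18, SE, adjusted p = 0.856; log2 0.13 with library totals), and ALIOS DEN tumours 21.4, 29.7 and 57.0 CPM, the highest in T24 (log2 0.19 ± 0.20, SE, adjusted p = 0.444, and log2 0.035 without T24). With the diet in liver none of 8 endothelial markers was called, while 12 of 16 macrophage, 3 of 4 T cell and 3 of 9 stellate and fibroblast markers rose. The part of these cells in the Msn values was not tested.

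The 5 control diet DEN tumours read 16.2, 20.7, 30.9, 35.6 and 43.3 CPM of Msn, the highest in T17. Against control liver this was log2 0.55 ± 0.21 (SE, adjusted p = 0.0372). The call was lost in 9 of 17 fits that left out 1 library (log2 0.36 to 0.66), in the fit of all 6 groups and with no filter on low counts.

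**Figure D4:**
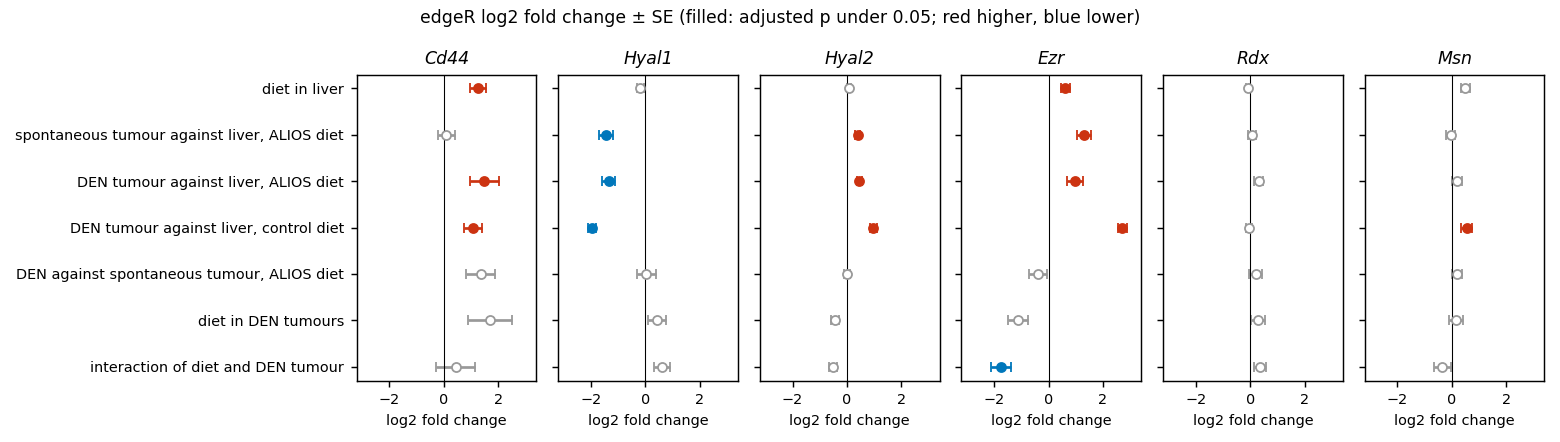
edgeR log2 fold change ± SE (horizontal axis) of the 6 members that passed the filter, in 7 comparisons (rows), the last the interaction of diet and DEN tumour. Filled points have an adjusted p under 0.05, red higher and blue lower; Hyal1 was lower in all 3 tumour against liver rows, Hyal2 and Ezr higher in the same rows, and Rdx was called in none.

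No member was called between DEN and spontaneous tumours on the ALIOS diet. edgeR called 0 of 14845 genes higher (0%) and 0 lower (0%), with 1079 at an unadjusted p under 0.05, while DESeq2 called 75 and the fit of all 6 groups 403, none of them a member. The log2 differences were -0.40 for Ezr, 0.20 for Rdx, 0.19 for Msn, 0.04 for Hyal1 and 0.01 for Hyal2. Between diets in DEN tumours 0 of 14944 genes were higher (0%) and 2 lower (0.0134%), 1273 had an unadjusted p under 0.05, DESeq2 called 155, and no member was called. Besides Ezr and Cd44, Hyal2 gave log2 -0.43 ± 0.14 (SE, adjusted p = 0.397), Hyal1 0.43, Rdx 0.28 and Msn 0.16 there.

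The single spontaneous tumour of a control diet mouse, T7, was described by its values only. It read 4.75 CPM of Cd44, 8.78 of Hyal1, 54.6 of Hyal2, 9.82 of Ezr, 278.8 of Rdx and 28.45 of Msn, with 1 count of Has2 and 3 of Has3. Its Hyal1 lay below every liver and its Hyal2 and Ezr above every liver.

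Cd44 was set against the other members within each group of at least 6 libraries, which gave 25 relations with enough counts. With Msn, Pearson's r was 0.91 in the 11 ALIOS livers (permutation p = 0.00068, 0.0170 adjusted over the 25) and 0.78 without N13 and N19, the 2 livers farthest from the median Cd44. Spearman's rho was 0.78 there (permutation p = 0.0065, adjusted 0.162). In the 12 control livers r was 0.80 (permutation p = 0.0032, adjusted 0.0403) and rho 0.61 (permutation p = 0.0388, adjusted 0.162). There r fell to 0.46 without N6 and N10. Leaving out the livers farthest from the median also narrows the range of Cd44, so this cannot tell whether the relation rests on them. In spontaneous tumours r was 0.68 (permutation p = 0.0162, adjusted 0.101), and in ALIOS DEN tumours 0.79 (exact permutation p = 0.0652, adjusted 0.194) and 0.10 without T24 and T27. No other relation had an adjusted p under 0.05, and none by Spearman's rho.

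The next relations by adjusted p of r were those with Rdx in ALIOS livers, with r of -0.74 and rho of -0.69 (permutation p = 0.0116 and 0.0225, adjusted 0.0963 and 0.162), and with Ezr in control livers, with r of 0.60 and rho of 0.64 (permutation p = 0.0212 and 0.0286, adjusted 0.106 and 0.162). The r of the latter was 0.37 without N6 and N10.

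The genes whose level followed Cd44 most closely were found by Spearman's rho of log2 CPM centred on each group's mean, over 43 libraries and 12551 genes with a mean of at least 1 CPM. They were Fcer1g (rho 0.90), which codes for the shared gamma chain of Fc receptors, Tifab (0.89), Basp1 (0.89), Ncf4 (0.89), a subunit of the phagocyte NADPH oxidase, Spi1 (0.88), the gene of the transcription factor PU.1, Ly9 (0.88), Lcp2 (0.88), the gene of the adaptor SLP-76, and Laptm5 (0.88). These are descriptions over libraries that share depth and composition, and carry no p. Of the 8 genes, 5 stayed among the first 8 without T24, 2 in the 23 livers alone and 2 with Pearson's r.

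Among the members on the same measure, Msn had a rho of 0.66 with Cd44 and rank 318 of 12550, Hyal1 0.21, Ezr 0.09, Hyal2 -0.15 and Rdx -0.37. In the 23 livers alone Ezr had 0.53. The genes most like Msn were Hip1 (rho 0.90), Plek (0.88) and Rab8b (0.86), those most like Ezr were Fblim1 (0.82), Ggta1 (0.80) and Prrg4 (0.78), and those most like Rdx were Ap3b1 (0.92), Tbc1d15 (0.90) and Rab5a (0.89).

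The other genes of hyaluronan metabolism, a list of 35, gave 2 that rose and 2 that fell of 25 tested with the diet in liver, where 6.73% of all genes rose and 4.51% fell, with a median log2 fold change of -0.06 where that of all genes was -0.02. Hexa (log2 0.49 ± 0.12, SE, adjusted p = 0.0147), which codes for a lysosomal enzyme subunit that degrades the fragments, rose with Tlr4 (0.58). Ugdh, which makes the UDP-glucuronate for the polymer, fell (log2 -0.34 ± 0.08, SE, adjusted p = 0.0112), as did the scavenger receptor gene Stab1 (-0.25).

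In tumours the same list had a median above that of all genes in each comparison. In spontaneous tumours 8 rose and 3 fell of 27 tested, where 26.9% of all genes rose and 25.9% fell, with a median log2 fold change of 0.16 (0.01 over all genes). In ALIOS DEN tumours 10 rose and 1 fell of 28, where 27.7% of all genes rose and 19.8% fell, with a median of 0.30 (0.08 over all genes). Without T24, a choice made after seeing the data, 12 rose and 1 fell, which was Ugdh (-0.67), and the median was 0.27. In control diet DEN tumours 13 rose and 4 fell of 28, where 27.3% of all genes rose and 24.4% fell, with a median of 0.40 (0.03 over all genes). Itih5, of the family of heavy chains that bind hyaluronan, had the smallest p of the risers in each, with log2 3.79 ± 0.44, 4.22 ± 0.45 and 4.42 ± 0.25 (SE, adjusted p = 6.0e-07, 5.9e-07 and 3.7e-11). Hmmr, a hyaluronan-binding protein of the mitotic spindle, rose by log2 3.87 and 4.12 in the ALIOS and control diet DEN tumours, in each of which all 8 proliferation markers rose too. Ugdh fell again in spontaneous tumours (log2 -0.86), with Itih1 (-0.48) and Uap1 (-0.25), and in control diet DEN tumours (-0.83), with Itih1 (-0.66), Stab2 (-0.54) and Uap1 (-0.38), the last outside the rule for named genes and named for completeness. Gnpnat1 (-0.25) was the 1 that fell in ALIOS DEN tumours, and lost that call without T24 (-0.22, adjusted p = 0.0567), while Itih5 (4.36) and Hmmr (3.99) kept theirs.

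Of 36 partners of Cd44 and of the ERM proteins, 4 rose and 1 fell of 34 tested with the diet in liver, where 6.73% of all genes rose and 4.51% fell. The median was log2 0.04, and that of all genes -0.02. Those 4 include Selplg (log2 1.05 ± 0.22, SE, adjusted p = 0.0057), a leukocyte P-selectin ligand bound by moesin, the ERM kinase gene Stk10 (0.82) and the actin scaffold gene Iqgap1 (0.79). The fourth was Spp1 (1.33), the gene of the CD44 ligand osteopontin, which is named for completeness. The Rac activator gene Tiam1 fell (-1.06). In tumours 13 rose and 6 fell of 33 in the spontaneous group (median log2 0.18), where 26.9% of all genes rose and 25.9% fell. In the ALIOS DEN group 14 rose and 3 fell of 34 (median 0.24), where 27.7% and 19.8% of all genes did. Without T24, 14 rose and 5 fell there and the median was 0.12 (0.05 over all genes). In the control diet DEN group 16 rose and 5 fell of 35 (median 0.41), where 27.3% and 24.4% of all genes did.

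Icam1, an adhesion molecule whose tail binds ERM proteins, rose by log2 1.30 ± 0.21 and 1.35 ± 0.20 (SE) in spontaneous and ALIOS DEN tumours. Mmp14, a membrane protease that sheds CD44, rose by log2 1.16 ± 0.16 and 1.39 ± 0.13 there. Slc9a3r1, the gene of a scaffold that links ezrin and radixin to transporters, fell by 0.55 and 0.74 on the log2 scale, and Met, the gene of the hepatocyte growth factor receptor, by 0.50 and 0.61. Nf2, the gene of the ERM relative merlin, was the third that fell in ALIOS DEN tumours (-0.21). Without T24 these ALIOS DEN values were 1.33 for Icam1, 1.40 for Mmp14, -0.91 for Slc9a3r1, -0.60 for Met and -0.24 for Nf2, all still called. In control diet DEN tumours Iqgap1 (log2 1.72 ± 0.18, SE) and Stk10 (1.59 ± 0.13) led the risers. Nf2 fell there (-0.53 ± 0.07), as did Egfr (-1.12) and Met (-0.46), and, named for completeness, Tiam1 (-1.20) and Rhoa (-0.25). Stk10, a kinase that phosphorylates ERM proteins, was the only listed gene besides Ezr called in the interaction (log2 -1.08 ± 0.23, SE, adjusted p = 0.0111), and kept that call without T24 (-1.06, adjusted p = 0.0086), where Slc9a3r1 (-0.64) and Stab2 (0.68) were called too. The heat map of listed genes shows these values.

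**Figure D5:**
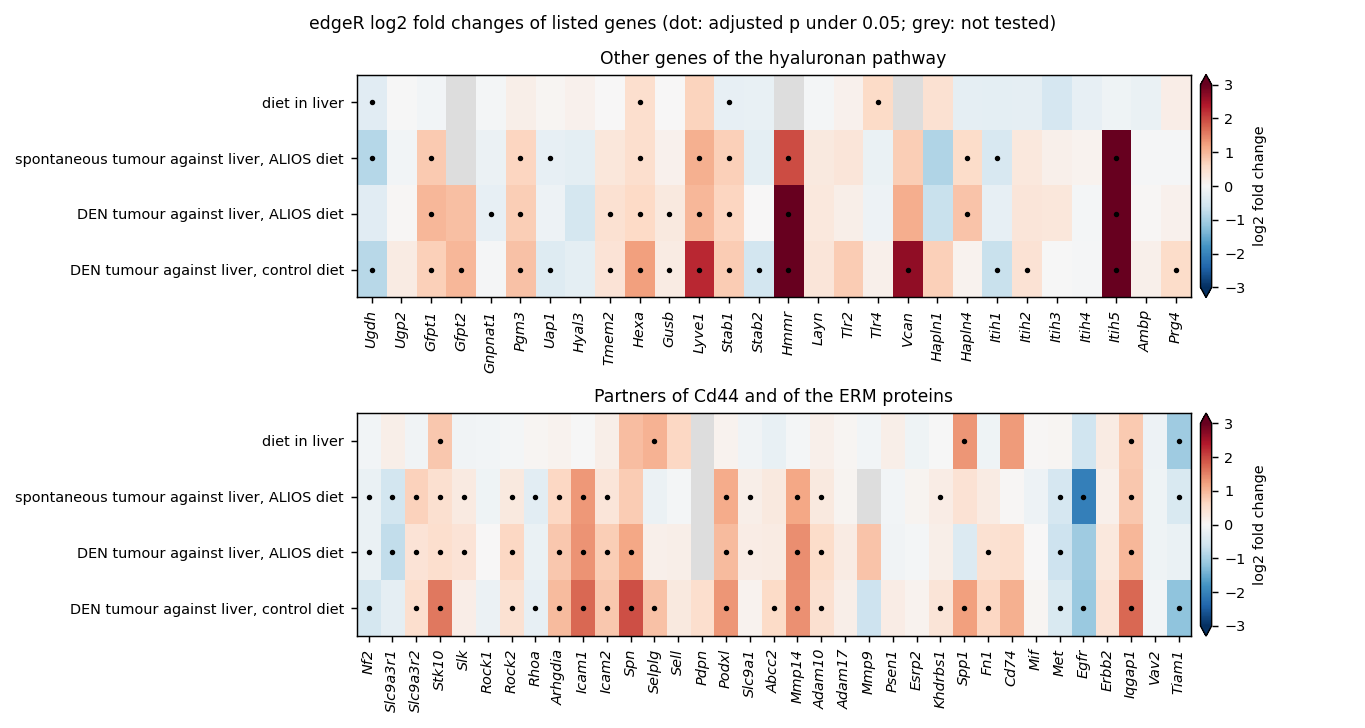
edgeR log2 fold changes (colour, limited to 3 either way) of the other hyaluronan genes (top) and of the partners of Cd44 and the ERM proteins (bottom) that were tested, for the diet in liver and 3 tumour against liver comparisons (rows). Dots mark an adjusted p under 0.05 and grey cells genes not tested; dots are sparse in the diet row, with 4 in the upper list and 5 in the lower, and frequent in the tumour rows.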

How the data were processed

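The authors prepared stranded mRNA libraries, sequenced them with paired 100 bp reads and aligned the reads to mm10 (STAR, 2 passes). HTSeq then assigned reads to Gencode M6 genes by exon overlap. The tool versions and the strand setting are not given in the sources used here. They deposited raw counts per gene, not normalized, for 50 libraries and 45792 genes.

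Groups came from the sample labels. The 8 members and the gene lists were chosen with earlier results of these data known. Counts were tested with edgeR 4.0.16 (filterByExpr, TMM, glmQLFit and glmQLFTest, only the groups compared in a fit, no covariates, Benjamini-Hochberg) in R 4.3.3, after the steps were tested on simulated data. SE is the log2 fold change divided by the square root of F. CPM used TMM over 49 libraries, with a prior count of 2 for log2 values. Members that failed the filter were compared by 2-sided permutation tests (scipy 1.17.1). Alternatives were RLE factors, library totals, DESeq2 1.42.0, no filter, all 6 groups in 1 fit, T1 kept, T24 left out and each library left out. Named from the lists were at most 3 higher and 3 lower called genes with the smallest p for each list and comparison; 1 gene of the hyaluronan list is not reported here. The labels do not say whether libraries of a group are from separate mice. The paper counts as many mice as spontaneous tumours and treats each non-tumour liver as a mouse, but does not describe the DEN tumours. The p-values measure the spread between these libraries. No 2 libraries of a group were alike enough to be the same library (chi-square per gene at least 12.96). The upper limit given for Has2 in control livers covers counting error only, while the SE includes the spread between libraries. Exon lengths and coordinates are from Gencode M21.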

Additional observations from a re-analysis of the deposited data

Results flagged for a closer look

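A library far from the others of its group was looked for in 15 pairs of member and group, among groups of 5 and 8 libraries. For normally spread values chance gives about 1 in 20. Has2 and Has3 had few counts with ties, for which that rate need not hold. Such a library was found in 3 pairs. Cd44 in the ALIOS DEN tumour T24 read 6.59 log2 CPM, where the other 7 tumours read 1.80 to 3.82. Has2 in the same tumour read -2.57 log2 CPM, from 6 counts, where the others read at most -3.42. Has3 in the control diet DEN tumour T18 read -1.16 log2 CPM, from 13 counts, where the other 4 read -2.65 to -2.45.

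The effect of the diet on Ezr differed between DEN tumours and liver by log2 -1.74 ± 0.37 (SE; edgeR interaction, adjusted p = 0.0112).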

How the results depend on the processing

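No paired analysis was possible because the labels do not tie a tumour to a liver and the groups share no replicate numbers. Calls of Hyal1, Hyal2 and Ezr in the 3 tumour against liver comparisons kept direction and call under each alternative run. In 1 fit of all 6 groups, the diet in liver called 623 genes and 0 members, control diet DEN tumours 3 members, DEN against spontaneous tumours 403 genes, the diet in DEN tumours 296 and the interaction 220. DESeq2 called 75, 155 and 657 genes in the last 3 of these and 2 members in the interaction, and without a filter on low counts the diet in DEN tumours called 1 gene. Without T24 the diet in DEN tumours called 14 genes and the interaction 732 genes and 2 members. With library totals as the only scaling, the share of called genes that rose moved from 59.9% to 87.1% (diet in liver), 50.9% to 72.9% (spontaneous tumours), 58.3% to 73.9% (ALIOS DEN tumours) and 52.7% to 59.7% (control diet DEN tumours). The median log2 fold change of all genes there was 0.19 in spontaneous tumours, 0.21 in ALIOS DEN tumours, 0.14 for the diet in DEN tumours and 0.11 in the interaction. Leaving out 1 library at a time gave 949 to 2343 genes and 1 to 3 members for the diet in liver, 3 to 5 members for control diet DEN tumours, 0 to 15 genes for DEN against spontaneous tumours, 0 to 19 for the diet in DEN tumours, and 174 to 446 genes and 1 to 2 members for the interaction. Differences not called changed sign. In spontaneous tumours they ranged from -0.033 to 0.27 for Cd44, -0.013 to 0.13 for Rdx and -0.12 to 0.044 for Msn, which read 0.13 with library totals and 0.31 with T1 kept. In control diet DEN tumours Rdx ranged from -0.11 to 0.017 (0.027 with library totals). Between DEN and spontaneous tumours Hyal1 ranged from -0.12 to 0.16 (-0.10 with T1 kept, -0.041 without T24) and Hyal2 from -0.039 to 0.04, and Msn read -0.12 with T1 kept. Msn ranged from -0.0079, without T24, to 0.35 for the diet in DEN tumours, and Cd44 read -0.78 in the interaction without T24. ALIOS DEN tumours against liver and against spontaneous tumours were refitted without each of the 8 ALIOS DEN tumours only, and the interaction without each of the 5 control diet DEN tumours, T24 and T23 only. Has2 and Has3, with at most 13 counts a library, were limited by depth. The causes were not tested.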
